A study of Mus musculus with 6 samples.

Results

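Collagens are the main structural proteins of the extracellular matrix, and lysyl oxidases are the copper enzymes that cross-link them. Their genes were described here in mouse embryonic stem (ES) cells grown with or without vitamin C. The members are every gene whose probe set on the array carried exactly 1 gene symbol and whose symbol names a collagen chain or Lox, Loxl1, Loxl2, Loxl3 or Loxl4. By this rule 48 of the 19938 genes tested are members, 44 collagen chains and 4 lysyl oxidase genes. The only probe set of Loxl2 is annotated to 2 symbols, so Loxl2 was not analysed here. RNA levels come from Affymetrix arrays with a single dye, 3 of untreated cells and 3 of cells given L-ascorbic acid 2-phosphate, a stable form of vitamin C, at 200 μg/ml for 72 hours. All 6 cultures were Oct4-GiP ES cells, which carry a reporter of the Oct4 gene, on gelatin in N2B27 with LIF at 1000 U/ml, the MEK inhibitor PD0325901 at 1 μM and the GSK3β inhibitor CHIR99021 at 3 μM. This serum-free mixture is used to hold ES cells in a naive state. The series calls the arrays of a group biological triplicates, and the sources used here do not say whether the cells were 1 clone. All 12 measured genes of an ES cell identity list, among them Pou5f1 and Nanog, lay above the level defined for dim probe sets further on.

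Collagen chains assemble in the endoplasmic reticulum into a helix of α chains in which every turn repeats glycine followed by 2 other residues. Prolyl and lysyl hydroxylases modify proline and lysine in this repeat, and these enzymes need iron, oxygen, 2-oxoglutarate and ascorbate, which is why lack of vitamin C weakens connective tissue. After secretion and trimming, lysyl oxidases convert lysine and hydroxylysine to aldehydes that form the cross-links between chains. In the early mouse embryo collagen IV forms the basement membrane sheets laid down by extraembryonic endoderm, whereas fibrillar collagens I and III are typical of later mesenchyme.

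Of the 48 members, 7 rose with vitamin C, none fell and 41 did not pass the test, which was limma's moderated test with a Benjamini-Hochberg adjusted p under 0.05 over all genes. The 7 genes were the fibrillar collagen genes Col1a1, Col1a2, Col3a1 and Col24a1, the basement membrane gene Col4a1, the short-chain gene Col8a1 and Lox. Over all genes tested, 5.75% rose, 7.40% fell and 13.2% changed in either direction, against 14.6% of the members, all of them upward. The share of members that changed was therefore near that of all genes, and the balance of directions was not tested. At an unadjusted p under 0.05, 14 members differed. The collagen differences were small. Among the 6 collagen genes that rose, folds ran from 1.20 to 1.49, while Lox was 2.81-fold higher. In such bulk RNA, more cells of a type and more RNA per cell cannot be told apart.

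Differences below the threshold leaned the same way. A difference above 0 (vitamin C minus untreated, log2) was measured for 44 of 48 members, or 91.7%, against 52.8% of all genes, and the median difference was 0.12 over the members and 0.01 over all genes. The exceptions were Col5a1, Col5a3, Col6a1 and Col6a2, and the lowest difference of any member was -0.07. The 3 vitamin C arrays lay wholly above the 3 untreated arrays for 14 members (29.2%), against 16.8% of all genes, and wholly below them for no member, against 18.2% of all genes. Over all genes, groups without overlap in either direction made up 35.0%. By array, the median distance of the 48 members from their own untreated mean was 0.18, 0.06 and 0.15 in vitamin C replicates 1, 2 and 3 and 0.07, -0.03 and -0.02 in the untreated replicates. Vitamin C replicate 2 thus lay below untreated replicate 1 on this measure, so the shift of the whole family was not larger than the spread between arrays.

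**Figure D1:**
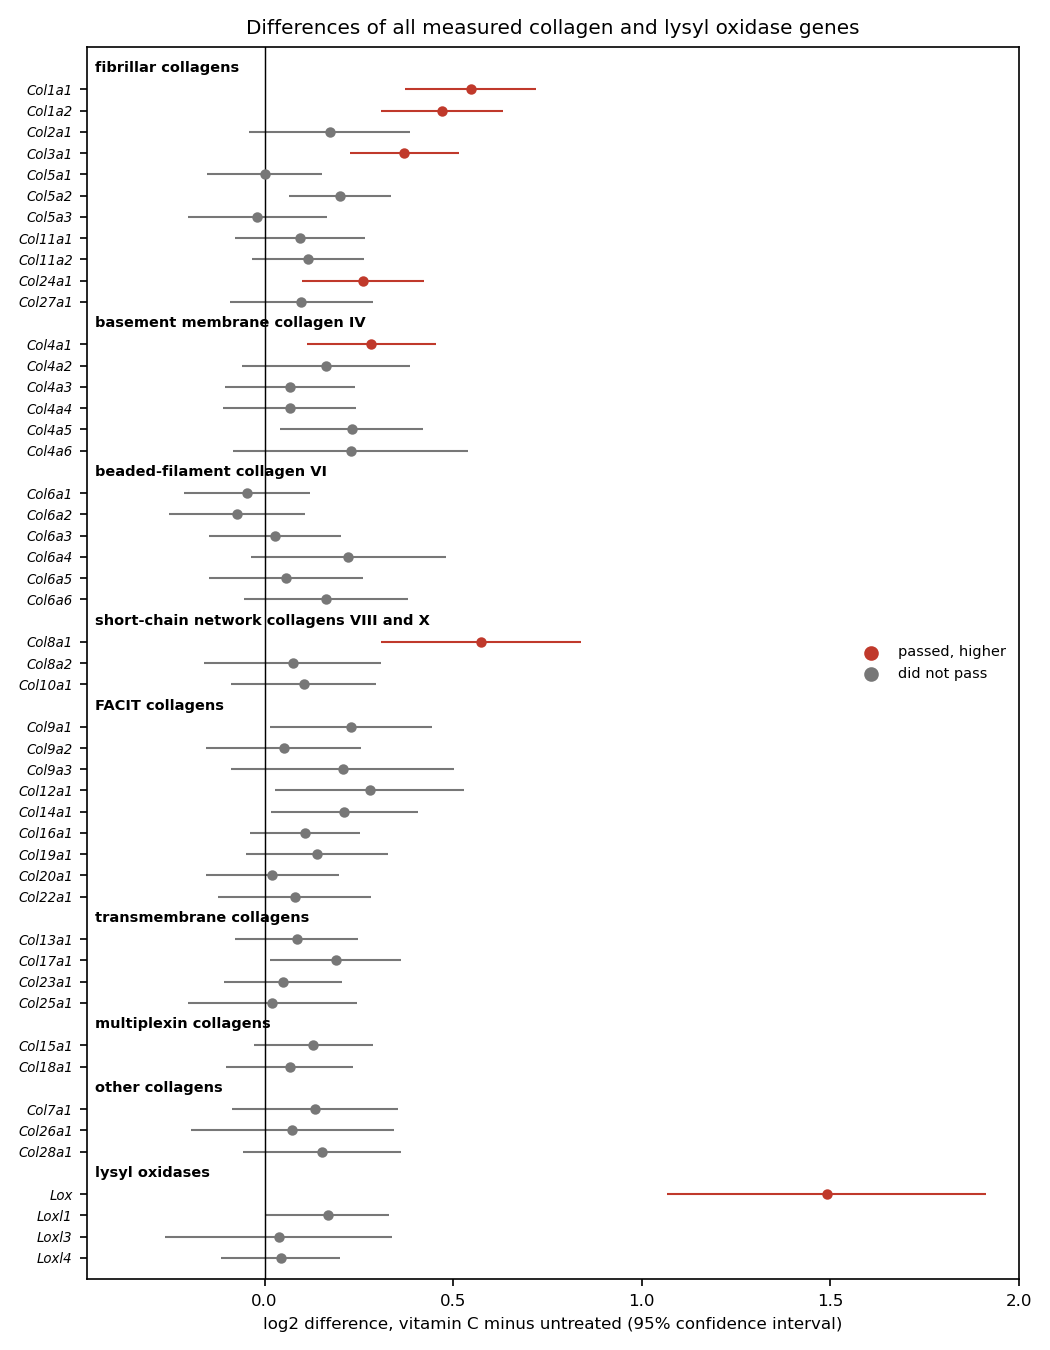
Log2 differences (vitamin C minus untreated, 3 arrays each) of the 48 measured members by collagen class, with 95% confidence intervals from limma. Red points passed the test (7 genes, all higher) and grey points did not; Lox stands farthest from 0 at 1.49, and collagen VI chains lie around 0.

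Among the 11 fibrillar collagens, the chains that build the rope-like fibrils of skin, bone and cartilage, 4 rose, none fell and 7 did not pass (median difference 0.17). Col1a1 encodes the α1 chain that makes up most of collagen I, the main protein of bone, tendon and skin. Its log2 signal was 6.46, 6.54 and 6.50 in the untreated arrays and 7.11, 6.92 and 7.12 in the vitamin C arrays. The lowest treated array lay clear of the highest untreated one, and the rise was 0.55 ± 0.07 (SE), or 1.46-fold, with an adjusted p of 0.00463. Col1a2, which supplies the α2 chain of the same molecule, read 6.20, 6.03 and 6.08 without and 6.62, 6.54 and 6.56 with vitamin C. These groups did not overlap either, and the rise was 0.47 ± 0.07 (SE, 1.39-fold, adjusted p = 0.00631). Both chains of collagen I therefore rose, by amounts whose 95% intervals (0.37 to 0.72 for Col1a1 and 0.31 to 0.63 for Col1a2) overlap.

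Col3a1, whose product forms a molecule of identical chains that joins collagen I in the fibrils of vessels and skin, read 5.87, 5.86 and 5.92 without and 6.32, 6.21 and 6.24 with vitamin C. All 3 treated arrays were higher than all 3 untreated arrays, and the rise was 0.37 ± 0.06 (SE, 1.29-fold, adjusted p = 0.00976). Col1a1, Col1a2 and Col3a1 passed in all 13 other settings tried for each. Col24a1, a fibrillar chain of developing bone and eye, read 5.35, 5.29 and 5.20 against 5.55, 5.47 and 5.60. Its groups were separate by a small margin, and the rise of 0.26 ± 0.07 (SE) passed narrowly at an adjusted p of 0.0483. Leaving out any 1 of the 6 arrays ended the call of Col24a1, at adjusted p-values between 0.0660 (vitamin C replicate 2) and 0.138 (untreated replicate 3).

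Collagen V forms the core on which collagen I fibrils grow, and its chains differed among themselves. Col5a2 read 5.17, 5.13 and 5.13 without and 5.38, 5.32 and 5.34 with vitamin C, with no overlap. The difference of 0.20 ± 0.06 (SE, 95% interval 0.07 to 0.34) did not pass at an adjusted p of 0.0629. Col5a1, which supplies most of the chains in collagen V, was the same in both groups at 6.24 ± 0.046 and 6.24 ± 0.066 (SD, n = 3 each). Its interval from -0.15 to 0.15 leaves no room for a rise as large as the estimate for Col1a1. Col5a3 differed by -0.02 ± 0.08 (SE, adjusted p = 0.90), with overlapping groups. The remaining fibrillar genes, Col2a1, Col11a1 and Col11a2 of cartilage and Col27a1, differed by 0.17, 0.09, 0.12 and 0.10, all with overlapping groups and none past the threshold.

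**Figure D2:**
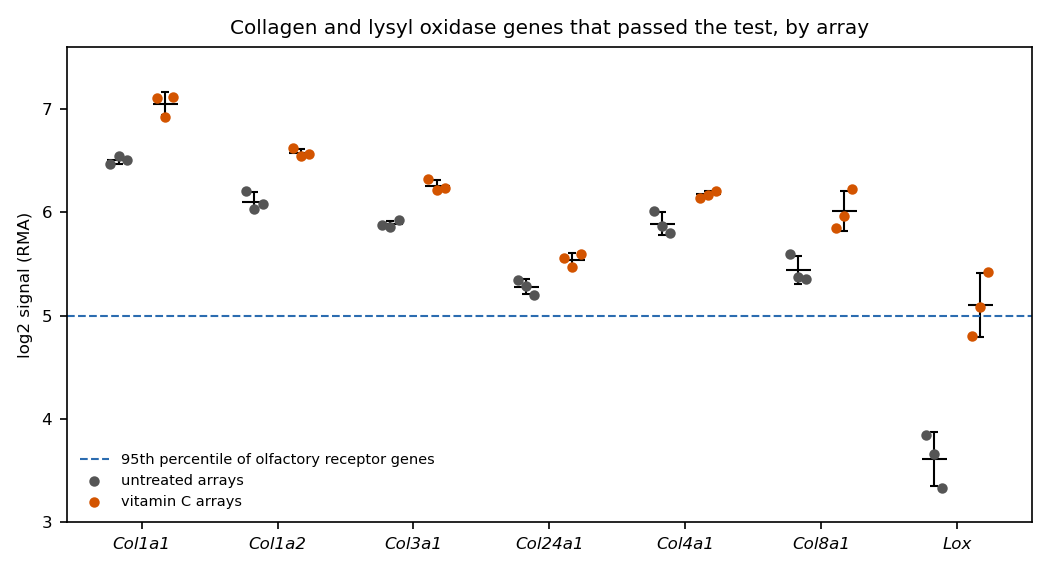
Log2 signal on each array for the 7 members that passed the test, with the mean and SD of each group (n = 3). Grey points are untreated and orange points vitamin C arrays, the dashed line is the 95th percentile of olfactory receptor genes (5.0), and the groups do not overlap for any of the 7 genes; levels of different genes are not comparable.

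The sequences upstream of the genes that rose were read to show how unlike they are in CG content, since the title of the series concerns DNA demethylation and CG is the dinucleotide that carries DNA methylation. Methylation was not measured on these arrays. RefSeq start sites (GRCm38.p6) were matched for 36 of the 48 members, with 39 windows, and for 5 of the 7 that rose. Col1a1 and Lox did not match. The 250 bases before the start are printed 5′ to 3′ on the gene's strand, with each CG in capitals, for Col1a2 (chr6:4505368-4505617, plus strand), Col3a1 (chr1:45311288-45311537, plus), Col8a1 (chr16:57754738-57754987, minus) and Col24a1 (chr3:145292222-145292471, plus).
Col1a2: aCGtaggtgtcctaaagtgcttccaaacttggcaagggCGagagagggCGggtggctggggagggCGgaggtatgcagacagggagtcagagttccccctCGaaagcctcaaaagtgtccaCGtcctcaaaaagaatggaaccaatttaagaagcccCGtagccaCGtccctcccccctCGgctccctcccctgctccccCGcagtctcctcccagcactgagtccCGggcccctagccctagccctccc
Col3a1: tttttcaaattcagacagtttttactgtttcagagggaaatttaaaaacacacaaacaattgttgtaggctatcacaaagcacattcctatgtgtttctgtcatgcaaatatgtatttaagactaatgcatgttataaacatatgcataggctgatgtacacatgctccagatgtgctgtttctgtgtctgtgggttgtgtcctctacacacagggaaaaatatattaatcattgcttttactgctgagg
Col8a1: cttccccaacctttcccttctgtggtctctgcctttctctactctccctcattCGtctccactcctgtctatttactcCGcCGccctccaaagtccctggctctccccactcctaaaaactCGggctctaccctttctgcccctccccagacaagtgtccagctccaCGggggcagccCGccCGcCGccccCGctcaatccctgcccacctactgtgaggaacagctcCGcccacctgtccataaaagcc
Col24a1: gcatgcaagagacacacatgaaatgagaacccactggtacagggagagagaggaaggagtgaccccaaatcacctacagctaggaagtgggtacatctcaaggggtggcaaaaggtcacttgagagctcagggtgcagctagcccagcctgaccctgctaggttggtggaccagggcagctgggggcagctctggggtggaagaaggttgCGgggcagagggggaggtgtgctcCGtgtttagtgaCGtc
Col1a2 holds 11 CG in this window and Col8a1 holds 10, whereas Col24a1 holds 3 and Col3a1 holds 0. Over all 32851 windows in the table the median was 6 CG, with quartiles of 2 and 16, and 7.87% held none. The 39 member windows had a median of 10 CG. The fifth gene that rose with a matched window, Col4a1, holds 31 CG, more than 94.8% of all windows. These 5 windows thus ran from no CG to 31, and those of Col1a1 and Lox were not read. Of short motifs searched on both strands, CCAAT was present in 13 of the 39 member windows (33.3%, against 33.8% of all windows) and GGGCGG, which contains a CG, in 23 (59.0% against 32.7%). The core letters bound by hypoxia-inducible factors, searched as ACGTG and, in the other known form, as GCGTG, were present in 12 (30.8% against 38.6%), and TATAAA was in 5 (12.8% against 12.4%). Among the printed windows, Col1a2 holds CCAAT, the hypoxia-factor core and GGGCGG, Col3a1 holds TATAAA, Col8a1 holds GGGCGG and Col24a1 holds none of them.

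Collagen IV builds the sheet-like network of basement membranes, and of its 6 chain genes 1 rose, none fell and 5 did not pass (median difference 0.20, but 0.10 without vitamin C replicate 1). Col4a1 read 6.01, 5.86 and 5.80 without and 6.14, 6.17 and 6.21 with vitamin C. The groups were separate, and the rise was 0.28 ± 0.07 (SE, 1.22-fold, adjusted p = 0.0448). Without untreated replicate 2 or 3, or vitamin C replicate 1, 2 or 3, it did not pass (adjusted p from 0.0949 to 0.127), and without untreated replicate 1 it did (0.0386). Col4a2, the partner chain of Col4a1 in the most widespread collagen IV molecule, is transcribed from the opposite strand, and the RefSeq starts of the pair lie 21 bases apart. It read 5.53, 5.56 and 5.61 against 5.93, 5.58 and 5.68. Only vitamin C replicates 1 and 3 lay above every untreated array, and the difference of 0.16 ± 0.10 (SE, 95% interval -0.06 to 0.39) did not pass (adjusted p = 0.306).

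The kidney and eye chains of collagen IV showed a like picture of small positive differences. Col4a5 read 5.37, 5.13 and 5.23 against 5.55, 5.41 and 5.46, without overlap, and its difference of 0.23 ± 0.08 (SE) did not pass (adjusted p = 0.108). Col4a6, its neighbour on the X chromosome, differed by 0.23 ± 0.13 (SE, adjusted p = 0.305) from dim values of 4.76 ± 0.18 (SD, n = 3). Col4a3 and Col4a4 each differed by 0.07 with intervals from -0.10 to 0.24 and from -0.11 to 0.24. Of 17 measured partners of collagen IV in basement membranes (laminins, nidogens, perlecan and others), 3 rose (17.6%, against 5.75% of all genes), none fell and 14 did not pass (median 0.05). Those that rose were Pxdn, the peroxidasin that cross-links collagen IV (0.27 ± 0.07 SE, adjusted p = 0.0362), and the laminin α-chain genes Lama3 (0.28 ± 0.07 SE, adjusted p = 0.0387) and Lama4 (0.42 ± 0.11 SE, adjusted p = 0.0494), the last from a dim untreated mean of 3.75. The call of Pxdn was lost with any 1 array left out (adjusted p from 0.0633 to 0.104). That of Lama3 was lost without each array except untreated replicate 1 (0.0887 to 0.115), and that of Lama4 without each except untreated replicate 2 (0.0752 to 0.137). Of the 17 genes, 7 had groups wholly higher and 3 wholly lower with vitamin C, against 16.8% and 18.2% of all genes. The 3 lower were Lamb2 (-0.21), Nid2 (-0.16) and Frem2 (-0.21), and none of them passed.

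Collagen VI makes beaded filaments around cells, and none of its 6 chain genes passed (median difference 0.04, but -0.01 without vitamin C replicate 3, 0.02 without untreated replicate 3 and 0.10 without vitamin C replicate 2). Col6a1 and Col6a2, the 2 short chains, read 5.83 ± 0.054 and 5.99 ± 0.0087 without and 5.78 ± 0.094 and 5.92 ± 0.13 with vitamin C (SD, n = 3 each). Their differences of -0.05 and -0.07 had intervals of -0.21 to 0.12 and -0.25 to 0.11. Col6a3, the long chain that completes the molecule, differed by 0.03 ± 0.08 (SE). For all 3 chains the upper end of the interval (0.12, 0.11 and 0.20) lay below the lower end for Col1a1 (0.37) and Col1a2 (0.31) and Col3a1 (0.23); the differences between these genes were not tested. The alternative long chains Col6a4, Col6a5 and Col6a6 differed by 0.22, 0.06 and 0.16 with overlapping groups. A further probe set gave 0.02 for Col6a5 and 0.20 for Col6a6.

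Of the short-chain network collagens, which form lattices under endothelium and in growing cartilage, Col8a1 rose and Col8a2 and Col10a1 did not pass. Col8a1 had arrays at 5.60, 5.38 and 5.35 without and 5.85, 5.97 and 6.23 with vitamin C. The groups were separate, but the treated arrays were spread over a wider range than those of Col1a1. Its difference was near that of Col1a1, and which of the pair was higher changed with the array left out. The rise was 0.57 ± 0.11 (SE, 1.49-fold, adjusted p = 0.0178), and it was not called without untreated replicate 2 (adjusted p = 0.0595) or 3 (0.0604). Col8a2, whose chain can assemble with that of Col8a1, differed by 0.07 ± 0.10 (SE, adjusted p = 0.678).

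None of the other 18 collagen genes passed. The 9 FACIT collagens, which sit on the surface of fibrils without forming fibrils themselves, had differences from 0.02 to 0.28 (median 0.14), and Col14a1 and Col16a1 had groups that did not overlap. The 4 transmembrane collagens ranged from 0.02 to 0.19, with separate groups for Col17a1, the hemidesmosome collagen. The multiplexins Col15a1 and Col18a1, basement membrane collagens whose ends are released as anti-angiogenic fragments, differed by 0.13 and 0.07, with separate groups for Col15a1. Col7a1 of anchoring fibrils, Col26a1 and Col28a1 differed by 0.13, 0.07 and 0.15, all with overlapping groups. For these 18 genes the 95% intervals ended at 0.53 (Col12a1) or lower, so rises of the size of Lox lie outside them. Smaller rises need not, since the interval of Col12a1 (difference 0.28, 0.03 to 0.53) includes the 0.47 of Col1a2. The intervals of Col9a1, Col12a1, Col14a1 and Col17a1 lay above 0 (unadjusted limma p from 0.034 to 0.040).

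Among the lysyl oxidases, Lox rose and Loxl1, Loxl3 and Loxl4 did not pass. Lox, the founding member, which cross-links collagens and elastin, read 3.85, 3.67 and 3.33 without and 4.81, 5.09 and 5.43 with vitamin C. All 3 treated arrays lay well above all 3 untreated ones, and the rise was 1.49 ± 0.18 (SE, 95% interval 1.07 to 1.91, adjusted p = 0.00296). The untreated level was dim, so the 2.81-fold figure rests on values in the range of genes that ES cells are not known to use. Loxl1, which acts on elastic fibres, read 5.05, 5.18 and 5.18 against 5.38, 5.27 and 5.26. Its groups were separate by a small margin, but 0.17 ± 0.07 (SE) did not pass (adjusted p = 0.162). Loxl3 differed by 0.04 ± 0.13 (SE, 95% interval -0.26 to 0.34) and Loxl4 by 0.04 ± 0.07 (SE, -0.11 to 0.20), and a further Loxl4 probe set gave 0.09. The intervals of the 3 relatives end at 0.34 or lower, below the interval of Lox; the difference between the genes was not tested.

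The level of a gene decides how much its difference can tell, because dim probe sets compress differences. As a scale, the 1027 olfactory receptor genes on the array, which have no known role in ES cells, had a median mean signal of 3.19 and a 95th percentile of 5.0. In untreated cells 40 of the 48 members lay above that percentile, and with vitamin C 42 did. The 8 below it in untreated cells were Lox, Loxl4, Col4a6, Col9a1, Col10a1, Col12a1, Col19a1 and Col28a1, of which Lox and Col9a1 lay above it with vitamin C. Lox moved from 3.61 ± 0.26 to 5.11 ± 0.31 (SD, n = 3 each). Being above this level is no detection call, and no detection calls were used. All 6 collagen genes that rose lay above the percentile in both groups. Differences also depended slightly on signal over the whole array. With that trend subtracted, a setting chosen after seeing the data, 6 members rose (all but Col24a1, adjusted p = 0.0676) and 41 of 48 differences were above 0, with a median of 0.11.

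**Figure D3:**
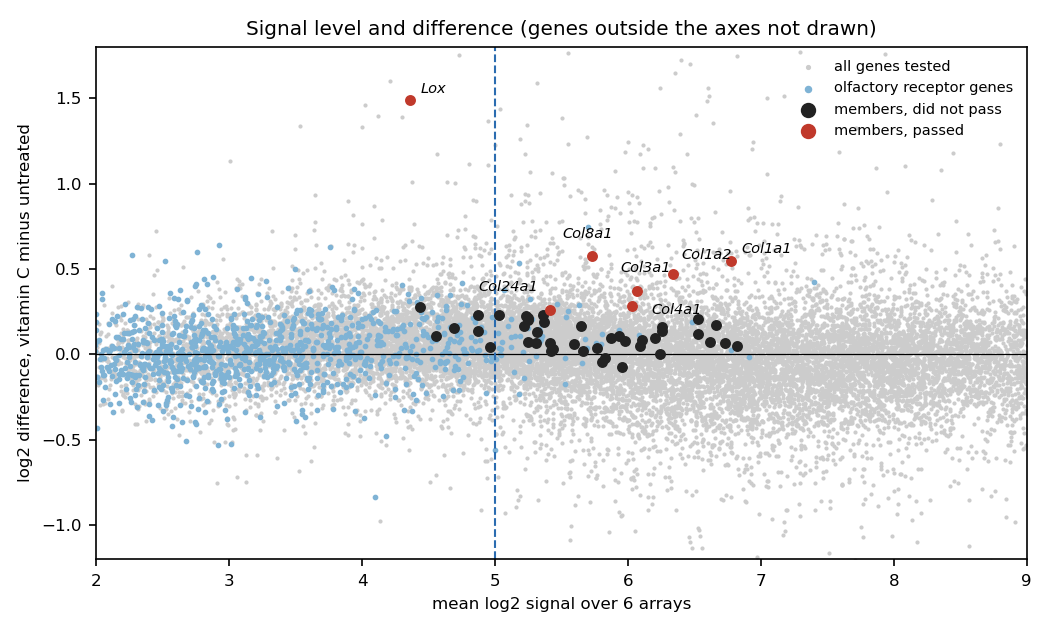
Mean log2 signal over the 6 arrays (x axis) against the log2 difference, vitamin C minus untreated (y axis), for all genes tested (grey), olfactory receptor genes (blue), members that did not pass (black) and members that passed (red, named). The dashed line is the 95th percentile of olfactory receptor genes (5.0); Lox lies to its left, the 6 collagen genes that passed lie to its right, and most members lie slightly above 0.

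Of 15 measured hydroxylation and glycosylation genes, 3 fell (20%, against 7.40% of all genes), none rose and 12 did not pass (median -0.08). Of the 15 differences, 5 were above 0. P4ha1, the main catalytic subunit of collagen prolyl hydroxylase, read 7.09, 7.04 and 7.09 without and 6.13, 6.05 and 5.84 with vitamin C. The groups were far apart, and the gene fell by 1.07 ± 0.09 (SE, 2.10-fold lower, adjusted p = 0.00062). P4ha2, a second catalytic subunit, fell by 0.41 (adjusted p = 0.00779), with arrays at 6.34, 6.25 and 6.24 against 5.90, 5.82 and 5.89. Plod1, a lysyl hydroxylase of the helix, fell by 0.53 (adjusted p = 0.00904), from 7.57 ± 0.15 to 7.04 ± 0.054 (SD, n = 3 each). Plod2, the lysyl hydroxylase of the chain ends, had the opposite sign at 0.22 ± 0.07 (SE) and did not pass (adjusted p = 0.0734), although its groups did not overlap. It passed as higher in 3 of the 13 other settings tried. Plod3 and P4ha3 differed by 0.11 and 0.03, and the 9 other genes of the list, among them P4hb, Crtap, Ppib and Colgalt1, did not pass. P4hb (-0.20 ± 0.06 SE, adjusted p = 0.0773) and Colgalt1 (-0.15 ± 0.07 SE, adjusted p = 0.197) were nevertheless lower in every vitamin C array. Of the 15 genes, 5 had groups wholly lower and 2 wholly higher with vitamin C, against 18.2% and 16.8% of all genes.

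Of the genes that fold and secrete procollagen 8.33% passed, and of those that trim it 10%, against 13.2% of all genes. Of 12 measured chaperone and secretion genes 1 rose, none fell and 11 did not pass (median -0.06). The gene that rose was Creb3l1, a membrane-bound transcription factor that is cleaved in response to stress and activates collagen I genes in bone. It read 6.36, 6.57 and 6.62 against 7.09, 7.28 and 6.99, without overlap, a rise of 0.60 ± 0.10 (SE, 1.52-fold, adjusted p = 0.0104). Serpinh1, the collagen-specific chaperone HSP47, differed by 0.07 ± 0.07 (SE, adjusted p = 0.561). Of 10 procollagen-processing proteases 1 rose, none fell and 9 did not pass (median -0.06). That gene was Mep1b, which encodes the β subunit of the metalloprotease meprin and is better known from kidney and gut. It went from 5.37 ± 0.19 to 6.21 ± 0.17 (SD, n = 3 each), a rise of 0.84 ± 0.12 (SE, adjusted p = 0.00572). Bmp1, the main protease of the C-terminal propeptide, differed by 0.15 ± 0.08 (SE, adjusted p = 0.267), and its enhancer Pcolce by -0.23 ± 0.06 (SE, adjusted p = 0.0507).

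Of 19 measured matrix proteins that bind fibrils, 7 rose (36.8%, against 5.75% of all genes), none fell and 12 did not pass (median 0.28). Decorin (Dcn), a proteoglycan that regulates fibril width, read 4.83, 4.77 and 5.09 against 5.98, 5.96 and 5.93, a rise of 1.06 ± 0.09 (SE, 2.09-fold, adjusted p = 0.00081) from a dim mean of 4.90 ± 0.17 (SD, n = 3). Its relative biglycan (Bgn) rose by 0.74 ± 0.11 (SE) from a dim 4.40 ± 0.20 (SD, n = 3). Thrombospondin 1 (Thbs1), a matrix protein that can activate TGFβ, rose by 0.95 ± 0.08 (SE, adjusted p = 0.000842). Fbln5, the fibulin that brings lysyl oxidases to elastic fibres, rose by 0.78 ± 0.11 (SE, adjusted p = 0.00531), and the fibrillin gene Fbn2 by 0.39 ± 0.06 (SE, adjusted p = 0.00828). Sparc, a collagen-binding protein that is abundant in parietal endoderm, rose by 0.43 ± 0.06 (SE) from 10.45 ± 0.025 (SD, n = 3). Fibronectin (Fn1), on which collagen fibrils are laid down, differed by -0.04 ± 0.06 (SE, adjusted p = 0.719). The seventh gene that rose was Lum, from 2.96 ± 0.16 to 3.68 ± 0.31 (SD, n = 3 each), below the 95th percentile of olfactory receptor genes in both groups.

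The receptors for collagen moved in both directions. Of 11 measured receptor genes, 1 rose, 2 fell and 8 did not pass, so 27.3% passed, against 13.2% of all genes. Ddr2, a tyrosine kinase receptor for fibrillar collagens, read 5.35, 5.59 and 5.14 against 6.38, 6.44 and 6.50. All treated arrays lay well above the untreated ones, a rise of 1.07 ± 0.11 (SE, 2.11-fold, adjusted p = 0.00176). Ddr1, its epithelial relative, differed by -0.02 ± 0.08 (SE, adjusted p = 0.878). Adgrg1 (GPR56), an adhesion G-protein-coupled receptor that binds collagen III, read 7.26, 7.28 and 7.42 against 6.47, 6.33 and 6.57. The groups were separate in the other direction, and the gene fell by 0.86 (adjusted p = 0.00123). Itgb1, the β subunit shared by the collagen-binding integrins, fell by 0.24 (adjusted p = 0.0402), and that call was lost with any 1 array left out (adjusted p from 0.0805 to 0.115). None of 14 collagen-degrading enzymes and their inhibitors passed limma's test, against 13.2% of all genes, and 2 had an unadjusted p under 0.05. Mmp2, Mmp14 and Timp1 differed by 0.20, 0.11 and 0.18. The highest difference in that list, 0.67 ± 0.23 (SE) for Timp2, had overlapping groups and an adjusted p of 0.0984.

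**Figure D4:**
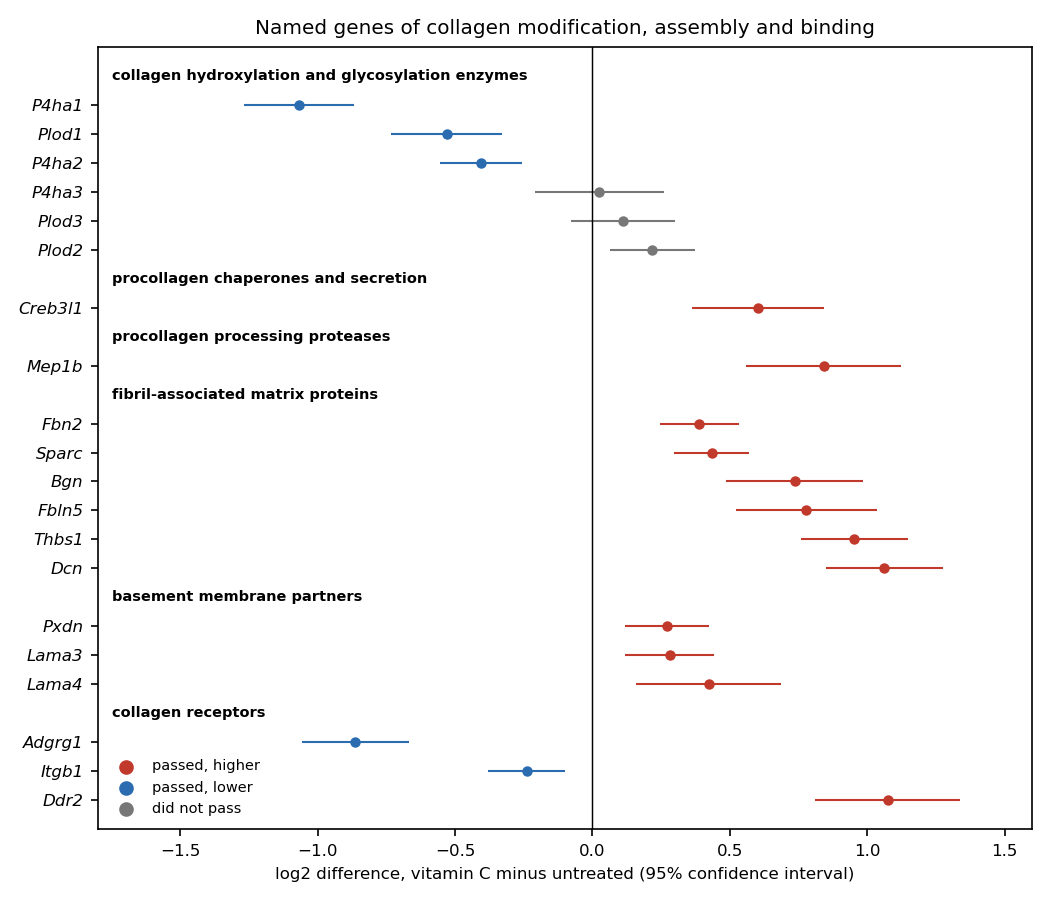
Log2 differences (vitamin C minus untreated, 3 arrays each) with 95% confidence intervals for the named genes of collagen modification, folding, processing, fibril binding, basement membranes and receptors. P4ha1 lies farthest to the left (-1.07) and Ddr2 and Dcn farthest to the right (1.07 and 1.06, Dcn from a dim untreated mean); blue fell, red rose and grey did not pass.

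Some markers of other cell types changed in the same comparison. Of the fibroblast and smooth-muscle, endoderm and ES cell identity lists below, 31.8%, 20% and 33.3% passed, against 13.2% of all genes. Over all genes 5.75% rose and 7.40% fell. Of 22 measured fibroblast and smooth-muscle markers without collagens, 6 rose, 1 fell and 15 did not pass. Those that rose were Acta2 (3.55-fold), Dcn (2.09-fold), Tagln (2.04-fold), Prrx1 (1.91-fold), Cald1 (1.5-fold) and the dim Lum, and Pdgfrb fell by 0.32 (adjusted p = 0.0179). The summed linear signal of this list was 3455 to 3535 in untreated and 3778 to 3870 in vitamin C arrays, and without Acta2, which added most, 3410 to 3468 and 3583 to 3694. Bright genes weigh most in such a sum. Among them Vim, which did not pass (adjusted p = 0.301), had mean log2 signals of 10.14 without and 10.24 with vitamin C, and Cald1 7.31 and 7.89. Of the 22 differences, 17 were above 0. Lum, Postn, S100a4, Fap, Thbs2 and Mgp lay at or below the 95th percentile of olfactory receptor genes in both groups, and Dcn and Prrx1 did so in untreated cells, so their folds start from dim values. Among the 15 that did not pass, the lowest difference was that of Fbln1, whose arrays were all lower with vitamin C (-0.35 ± 0.09 SE, adjusted p = 0.0506), and the others included Tgfbi at -0.18, Mgp at -0.09, Twist1 at 0.09, Fap at 0.18 and Postn at 0.22. Of 20 primitive and parietal endoderm markers, 4 rose (Dab2, Sparc, Gata6 and Fst), none fell and 16 did not pass, and the summed signal was 2940 to 3086 in untreated and 3552 to 3678 in vitamin C arrays. Sparc alone made up 492 of the mean increase of 614 in that sum, and without it the sums were 1564 to 1661 and 1709 to 1769. Sox17, Thbd, Afp, Ttr and Cubn lay at or below that percentile in both groups, and the laminin genes Lama1, Lamb1 and Lamc1 differed by 0.13, 0.02 and -0.003. Of the 20 differences, 15 were above 0. Among the other markers that did not pass, Krt19 differed by -0.23, Gata4 by -0.06, Hnf4a by -0.06 and Sox7 by 0.02. The lists overlap, since 6 of the fibroblast markers and 1 of the endoderm markers are also among the 19 fibril-binding genes. In ES cell identity genes, summed at 19773 to 19858 and 19988 to 20549, 3 of 12 rose (Nanog, Zfp42 and Utf1) and Lin28a fell by 0.52. Without Nanog those sums overlapped, at 16784 to 16851 and 16298 to 16860. The 8 other identity genes did not pass, among them Dppa5a (-0.14), Fgf4 (-0.13) and Pou5f1 (-0.12). Of the 12 differences 6 were above 0, with a median of -0.01. For 5 of the 12 genes the groups were wholly higher with vitamin C and for 4 wholly lower, against 16.8% and 18.2% of all genes. The part of these markers in the collagen and Lox values was not tested.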

How the data were processed

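The deposited table held 1 value for each of 35557 probe sets on each of 6 arrays, with no column without a sample. The values are on a log2 scale, inferred from their range, and the authors processed them with RMA, per the submitters' processing notes. Software and version: not given in the sources used here. RMA in general makes the distributions of the arrays alike, so a change shared by all genes is not visible, and precision is limited by how few arrays there are. Of the probe sets, 21789 carried 1 gene symbol in the platform annotation, 1621 several and 12147 none, and 19938 genes were tested, each at the probe set with the highest mean. All 48 members matched a mouse gene table (GRCm38.p6) by gene ID with the same symbol. Sample titles gave the groups. The test of vitamin C against untreated cells used limma 3.58.1 under R 4.3.3 (default eBayes, no covariate, Benjamini-Hochberg over all genes), and every adjusted p of a gene is from this test unless a setting is named. The method was tested on simulated data. Folds are 2 to the power of the log2 difference. Named members were those that passed, those with separate groups and a difference of 0.4 or more, the chains of collagens I, III, IV, V and VI, and the lysyl oxidases. From each of 7 related lists up to 6 genes that passed were named, with 6 hydroxylase genes. Serpinh1, Bmp1, Pcolce, Fn1, Ddr1, Lum, Fbln1, Mmp2, Mmp14, Timp1, Timp2, Pou5f1, the remaining collagens and the markers that did not pass were named after their values were seen. So were P4hb, Crtap, Ppib, Colgalt1, Lamb2, Nid2 and Frem2. The members and lists were chosen with earlier results of these data known. Alternatives changed the spread model, centring, dim-gene filter, probe-set handling, replicate block and arrays included. The replicate numbers were not shown to pair the arrays (correlation of same-numbered deviations 0.05, 0.01 and -0.02). Figures were drawn with matplotlib 3.10.9.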

Additional observations from a re-analysis of the deposited data

How the results depend on the processing

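Col1a1, Col1a2 and Col3a1 passed in all 13 alternatives, and Lox in all 12 that kept it; the filter on dim genes removed Lox. No member fell in any of them. The count of members that rose was 7 in the main test and 4 (Col1a1, Col1a2, Col3a1 and Lox) when all probe sets were tested or with the replicate block, and 4 to 6 with 1 array left out (4 without untreated replicate 2 or 3). The replicate numbers are not shown to pair the arrays. Col24a1 was lost in 10, Col4a1 in 7 and Col8a1 in 4 of the 13 alternatives, while Col5a2 passed with the dim-gene filter (adjusted p = 0.0269). Plod2 of the hydroxylase list passed as higher in 3 of 13. Among these were the trended and robust spread model (adjusted p = 0.0069) and the dim-gene filter (0.0346). Over all genes 2623 passed, 4151 with a trended and robust spread model, 1723 with the block and 1483 to 1721 with 1 array left out. With the trended model 6 of 48 members passed, against 4151 of 19938 genes, 1731 of them upward. With the dim-gene filter 7 of 41 members passed, against 3503 of 13552 genes, 1415 of them upward. In both settings the share of members that passed was lower than the share of all genes that passed in either direction. In the related lists 5 of 98 genes fell and 13 rose, against 7.40% and 5.75% of all genes. With the trended model 9 of the 98 related genes fell, against 2420 of 19938 genes tested, and 16 rose, against 1731. With the dim-gene filter 9 of 68 related genes fell, against 2088 of 13552, and 14 rose, against 1415. With 1 array left out the median difference ran from 0.14 to 0.22 for fibrillar collagens, from 0.10 to 0.25 for collagen IV, from -0.01 to 0.10 for collagen VI, from 0.063 to 0.16 for collagens VIII and X and from 0.095 to 0.16 for lysyl oxidases. With the signal trend subtracted the latter medians were 0.036 and 0.062, and with the dim-gene filter collagens VIII and X, then 2 genes, gave 0.32. Fits with 1 array left out rest on fewer arrays, and why the counts differed between settings was not tested. Depth cannot be given for arrays, and 8 members were dim in untreated cells.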
